A study of Homo sapiens with 12 samples.

Results

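The cytosolic heat shock proteins and cochaperones described here are 10 genes chosen by symbol: the small heat shock proteins HSPB1, HSPB8 and CRYAB, the HSP70 genes HSPA1A, HSPA1B and HSPA8, the HSP110 gene HSPH1, the HSP90 gene HSP90AA1, and the cochaperones DNAJB1 and BAG3. All 10 were found among the 53717 genes of the count table, and all 10 were among the 17264 that passed the filter on low counts. The cells were H9, a widely used line of human embryonic stem cells, grown in RSeT, a commercial medium for naive-like human pluripotent cells. Cells were transfected with 25 nM of a fluorescein-labelled oligonucleotide, and labelled cells were sorted 48 h later. There were 3 groups of 4 libraries. ASO-L1 cells received an antisense oligonucleotide to LINE1, the most abundant family of human transposable elements, sO-L1 cells its sense counterpart, and ASO-Ctr cells an oligonucleotide without a specific target. All groups also received 0.7 uM trans-ISRIB, an inhibitor of the integrated stress response, 5 uM emricasan, a caspase inhibitor, and 10 uM Y-27632, a ROCK inhibitor, which were withdrawn after 24 h. No untransfected cells were analysed here, so every value below is from lipofected and sorted cells of 1 line. No label says that replicates were separate cultures, so p-values measure the spread between these samples only. In the main test, which has a term for replicate number, this is the spread left after replicate differences are removed.

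Heat shock proteins bind proteins that have lost or not yet reached their fold. Small heat shock proteins hold them in soluble form, J-domain proteins such as DNAJB1 pass them to HSP70, nucleotide exchange factors such as HSPH1 and BAG3 make HSP70 release them, and HSP90 finishes the folding of kinases, receptors and other clients. Heat, proteotoxic agents and other stresses activate the transcription factor HSF1, which binds arrays of the inverted unit GAA (heat shock elements) upstream of many of these genes, whereas HSPA8 is the constitutive HSP70 of unstressed cells. HSPB8 and BAG3 form a complex that hands damaged proteins such as stretched filamins to autophagy.

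Libraries held 22.8 M to 55.1 M counted reads, and the 10 genes took 0.588 to 0.732% of them. Levels are given as CPM, read counts relative to library size, after TMM scaling, a correction for differences in library composition, and 3 reads, the limit that a count of 0 allows, corresponded to 0.0534 to 0.128 CPM. This limit covers counting error only. The 8 embryonic stem cell markers examined (POU5F1, NANOG, SOX2, LIN28A, DPPA4, TDGF1, L1TD1 and SALL4) together reached 7370 to 7650 CPM in ASO-L1, 7471 to 7958 in sO-L1 and 7502 to 7779 in ASO-Ctr libraries. Of these, DPPA4 was higher in ASO-L1 than in ASO-Ctr cells by 0.19 on the log2 scale, and LIN28A, L1TD1 and SALL4 were lower by 0.22, 0.10 and 0.13. Against sO-L1 cells, DPPA4 was again higher, LIN28A and L1TD1 were again lower, and SOX2 was lower by 0.11. SALL4 did not pass the test against sO-L1, and SOX2 did not pass it against ASO-Ctr. Reads of LINE1 itself were not analysed here, so the count table gives no check of the targeted element.

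Of the 10 genes, HSPB8 alone differed by more than 1.2-fold between groups. It was 7.89-fold higher in ASO-L1 than in ASO-Ctr cells and 7.96-fold higher than in sO-L1 cells. The largest fold among the other 9 genes in these comparisons was 1.17, with HSPB1 and HSP90AA1 slightly higher and HSPA1B and DNAJB1 slightly lower in ASO-L1 cells than in both other groups. BAG3, the partner of HSPB8, and CRYAB, another small heat shock protein, did not pass the test in any comparison.

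The upstream sequences of the 5 genes called in both comparisons with ASO-L1 are shown because heat shock elements are the best known control sequences of this family. They are the 250 bases before the annotated start, 5′ to 3′ on the gene's strand, from RefSeq on GRCh38.p14, a later build than the hg19 build of the counts. Capitals mark each pair of inverted GAA units (GAANNTTC or TTCNNGAA) and each array of 3 units, in which GAANNTTC and TTCNNGAA overlap by their shared TTC, searched on both strands with overlaps allowed. The windows are chr12:119178681-119178930 (plus strand) for HSPB8, chr7:76302423-76302672 (plus) for HSPB1, chr14:102087045-102087294 (minus) for HSP90AA1, chr6:31827488-31827737 (plus) for HSPA1B and chr19:14518398-14518647 (minus) for DNAJB1. For HSP90AA1 and DNAJB1 RefSeq gives 2 and 3 start sites, and the window with such a pair is shown.
HSPB8: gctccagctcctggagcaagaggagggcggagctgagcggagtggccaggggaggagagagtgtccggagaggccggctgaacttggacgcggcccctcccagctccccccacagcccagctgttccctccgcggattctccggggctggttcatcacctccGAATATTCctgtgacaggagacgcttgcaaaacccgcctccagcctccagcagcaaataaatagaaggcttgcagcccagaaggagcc
HSPB1: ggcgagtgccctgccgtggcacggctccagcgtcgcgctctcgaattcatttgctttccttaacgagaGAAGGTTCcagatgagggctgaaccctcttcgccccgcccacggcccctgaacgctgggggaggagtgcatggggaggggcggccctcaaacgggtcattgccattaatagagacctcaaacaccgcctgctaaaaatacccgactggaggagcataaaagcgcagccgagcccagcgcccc
HSP90AA1: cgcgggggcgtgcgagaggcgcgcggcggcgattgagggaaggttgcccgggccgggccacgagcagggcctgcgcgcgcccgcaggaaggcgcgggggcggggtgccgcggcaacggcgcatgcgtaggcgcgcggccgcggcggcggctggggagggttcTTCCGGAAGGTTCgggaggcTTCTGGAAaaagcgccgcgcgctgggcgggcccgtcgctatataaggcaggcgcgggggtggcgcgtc
HSPA1B: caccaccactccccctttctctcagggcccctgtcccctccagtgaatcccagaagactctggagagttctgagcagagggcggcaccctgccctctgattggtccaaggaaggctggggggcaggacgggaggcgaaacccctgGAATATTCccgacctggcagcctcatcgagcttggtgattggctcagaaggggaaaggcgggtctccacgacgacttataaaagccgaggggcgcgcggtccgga
DNAJB1: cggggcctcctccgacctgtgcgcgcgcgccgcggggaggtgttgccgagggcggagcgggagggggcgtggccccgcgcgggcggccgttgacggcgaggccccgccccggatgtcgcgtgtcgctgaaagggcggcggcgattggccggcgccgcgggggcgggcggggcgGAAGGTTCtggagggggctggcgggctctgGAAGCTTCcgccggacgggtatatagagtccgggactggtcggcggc

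HSPB8, the gene with the 7.89-fold difference, and HSPA1B, which was slightly lower in ASO-L1 cells, carry the same 8 letters, GAATATTC, beginning 88 and 105 bases before the start. HSPA1A carries these letters 106 bases before its start, and HSPB1 carries GAAGGTTC at 182 bases. DNAJB1 has pairs at 77 and 47 bases, and HSP90AA1 has an array of 3 units at 88 bases in the window shown. The constitutive gene HSPA8 has 2 such arrays, at 230 and 55 bases, and no pair was found in the windows of HSPH1 and BAG3. Among 35116 windows of 250 bases upstream of 27305 genes, GAANNTTC was found in 5.78%, TTCNNGAA in 6.62% and the array of 3 units in 0.441%. TATAAA, the core of the TATA box, was found in 10.7% of all windows and, among the members, in HSPA1A and HSPA1B, 30 and 29 bases before the start. These matches describe letters in a window, not binding, and no match says only that the letters are not in these 250 bases.

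Differences between groups were tested for every gene with edgeR's quasi-likelihood F-test on the raw counts, fitted with terms for group and replicate number, and are called where the Benjamini-Hochberg adjusted p over all 17264 genes is under 0.05. Intervals are nominal 95% intervals of the same fit, and levels are mean ± SD over 4 libraries. In ASO-L1 against ASO-Ctr cells, 3 members were higher and 2 lower, beside 21.2% of all genes called higher and 23.1% called lower (44.3% in either direction). In ASO-L1 against sO-L1 cells, 4 were higher and 3 lower, beside 21.1% and 22.9% of all genes (44% in either direction). The 5 of 10 members called against ASO-Ctr are near the share of all genes, and the counts describe these 10 genes only. The median log2 fold change of the members was -0.04 against ASO-Ctr and 0.02 against sO-L1, beside -0.003 over all genes in both. In sO-L1 against ASO-Ctr cells 0 members were called by edgeR, beside 0.0695% higher and 0.22% lower over all genes (0.29% in either direction). There, 0 members reached an unadjusted p under 0.05, and 0 were called by DESeq2 or by limma on the authors' log2 values.

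**Figure D1:**
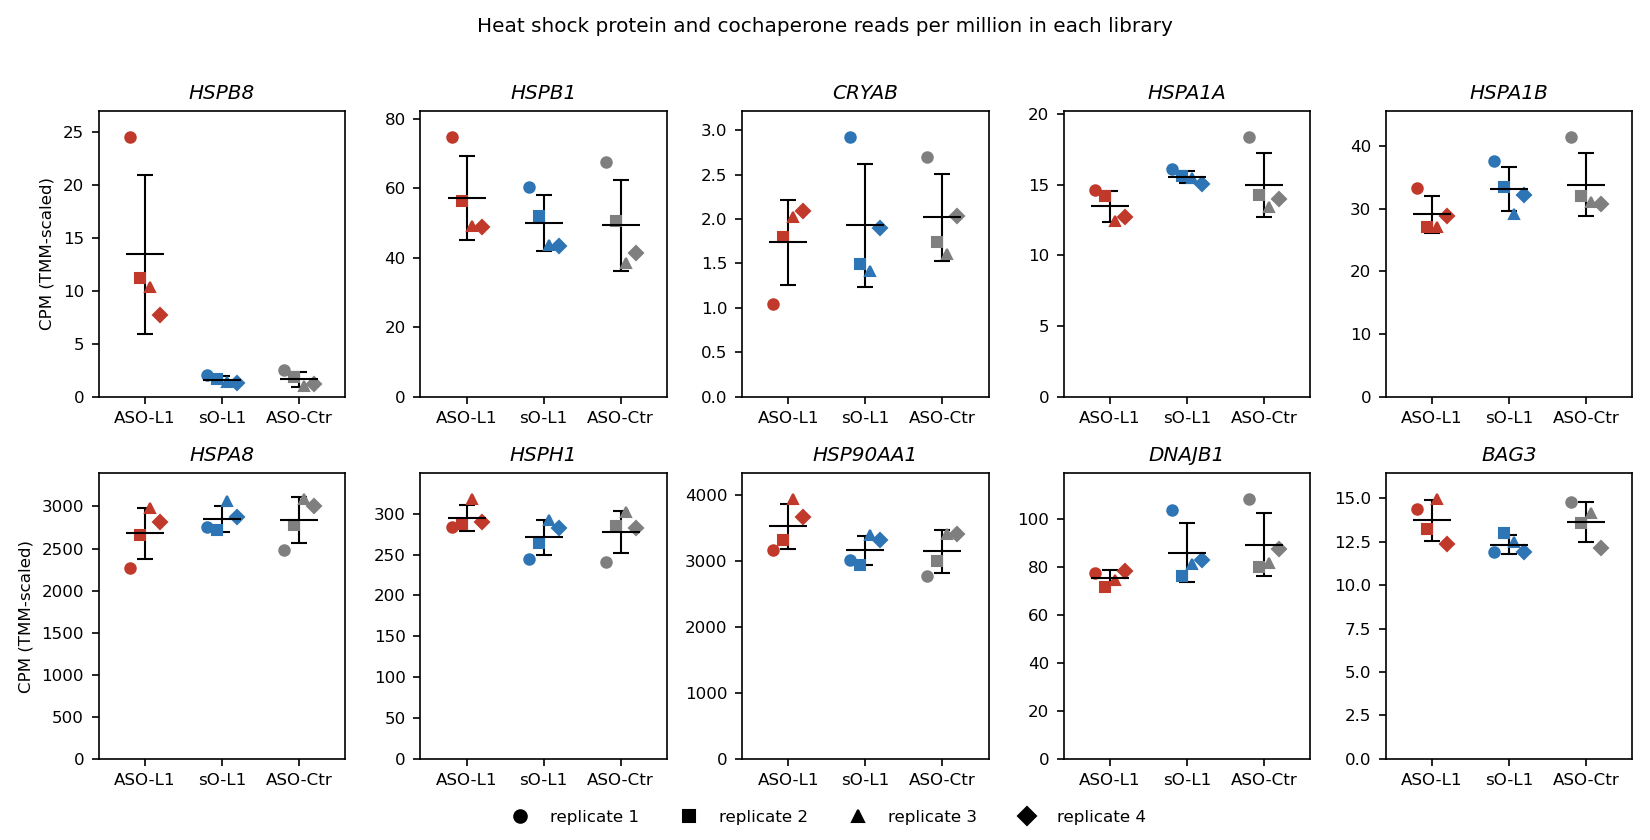
CPM (TMM-scaled, linear axes from 0) of each member in each library by oligonucleotide group, with marker shape giving the replicate number and bars giving mean ± SD of 4 libraries. HSPB8 in the ASO-L1 libraries (7.74 to 24.5 CPM) lies above all other libraries (1.01 to 2.48), while for the other genes the groups differ little against the spread between replicates.

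The plot of the members by library shows the size of the HSPB8 difference against that of the other genes. HSPB8, a small heat shock protein best known from muscle and motor neurons, had 24.5, 11.3, 10.4 and 7.74 CPM in the ASO-L1 libraries of replicates 1 to 4. It had 2.06, 1.67, 1.41 and 1.28 CPM in sO-L1 libraries and 2.48, 1.84, 1.01 and 1.19 CPM in ASO-Ctr libraries. The lowest ASO-L1 library was thus above the highest of the other 8, and replicate 1 was the highest library in each group. The counts behind these levels were 267 to 681 reads in ASO-L1, 39 to 94 in sO-L1 and 32 to 77 in ASO-Ctr libraries. Against ASO-Ctr the log2 fold change was 2.98 ± 0.15 (SE), 7.89-fold higher with an interval of 6.31 to 9.85, at an edgeR adjusted p of 1.15e-09. Against sO-L1 it was 2.99 ± 0.15, 7.96-fold higher with an interval of 6.40 to 9.90, at an edgeR adjusted p of 9.62e-10.

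The difference of HSPB8 had the same direction within every replicate number. ASO-L1 minus ASO-Ctr was 3.28, 2.58, 3.30 and 2.65 on the log2 CPM scale in replicates 1 to 4, and ASO-L1 minus sO-L1 was 3.54, 2.71, 2.83 and 2.55. Ordered by log2 fold change over all 17264 genes, HSPB8 was number 16 in ASO-L1 against ASO-Ctr and number 13 in ASO-L1 against sO-L1 cells. The sense oligonucleotide gave no call, with a log2 fold change of -0.01 ± 0.19 in sO-L1 against ASO-Ctr cells and an interval of -0.41 to 0.38. Because these are bulk libraries, more cells with HSPB8 RNA and more HSPB8 RNA per cell cannot be told apart.

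**Figure D2:**
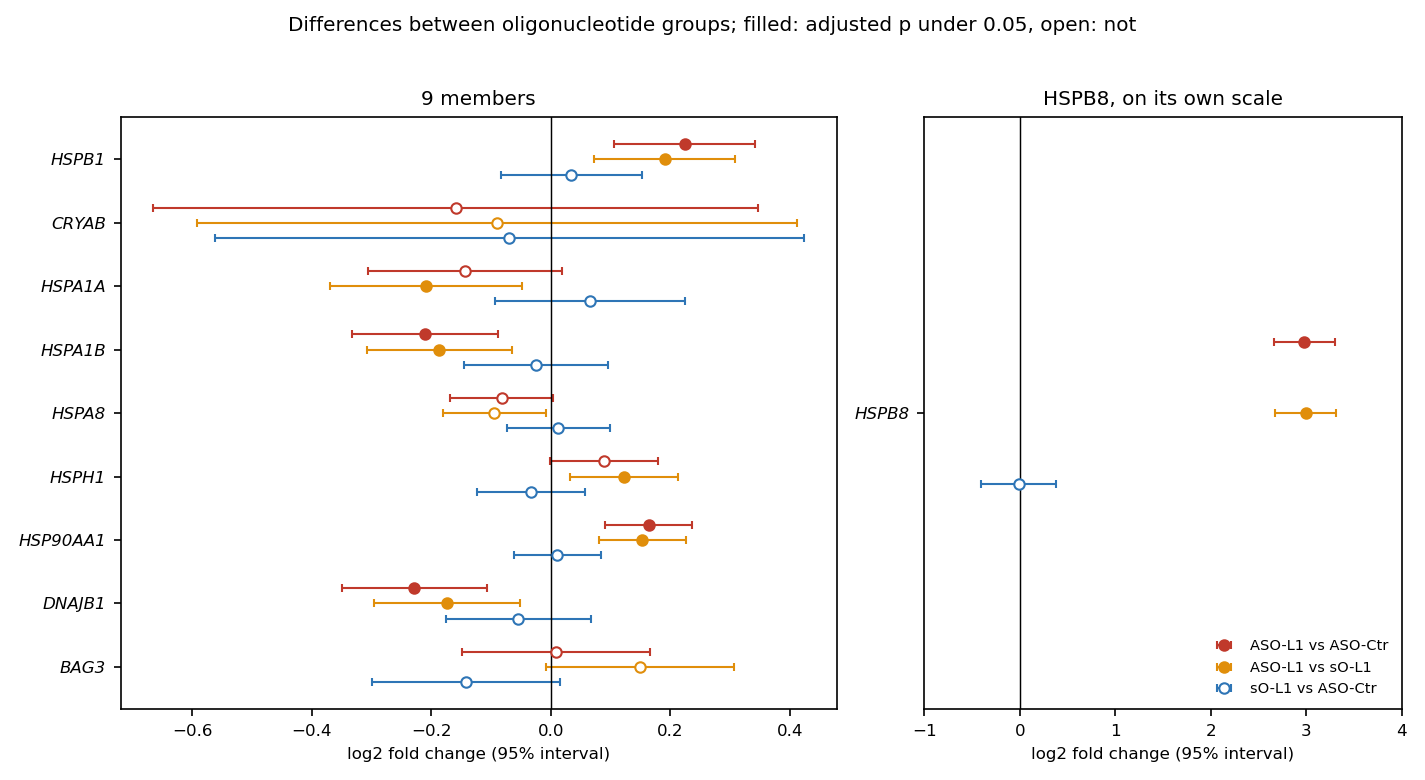
Log2 fold changes (points) with nominal 95% intervals (bars) of the members in ASO-L1 against ASO-Ctr, ASO-L1 against sO-L1 and sO-L1 against ASO-Ctr cells, with HSPB8 on a wider axis of its own. Filled points have an adjusted p under 0.05, and outside HSPB8 all point estimates lie between -0.23 and 0.22.

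As the plot of fold changes shows, HSPB1, the widely expressed HSP27, was higher in ASO-L1 cells by a small amount. It had 74.8, 56.5, 49.1 and 49.0 CPM in ASO-L1, 60.5, 52.03, 43.9 and 43.4 in sO-L1, and 67.5, 50.5, 38.5 and 41.3 in ASO-Ctr libraries of replicates 1 to 4. The groups overlap widely, and replicate 1 was the highest in each. Within a replicate number the ASO-L1 library was higher in 4 of 4 pairs in both comparisons, by 0.15 to 0.35 (log2) over ASO-Ctr and 0.12 to 0.31 over sO-L1. The fold change was 1.17 against ASO-Ctr (interval 1.08 to 1.27, edgeR adjusted p 0.00361) and 1.14 against sO-L1 (1.05 to 1.24, adjusted p 0.0104). The call against sO-L1 was lost without ASO-L1 replicate 3 or without sO-L1 replicate 1, with an adjusted p of up to 0.0721.

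CRYAB, the alpha-B crystallin of lens and muscle, was low in all groups, at 1.05, 1.79, 2.03 and 2.09 CPM in ASO-L1, 2.92, 1.495, 1.41 and 1.90 in sO-L1 and 2.70, 1.74, 1.61 and 2.03 in ASO-Ctr libraries. The groups overlap, and ASO-L1 replicate 1, the highest library for HSPB8, was the lowest of all 12 for CRYAB. The log2 fold change was -0.16 (interval -0.66 to 0.35, edgeR adjusted p 0.621) against ASO-Ctr and -0.09 (-0.59 to 0.41, adjusted p 0.786) against sO-L1. Without ASO-L1 replicate 1 these values were 0.17 and 0.26, again without a call. Its intervals are the widest of the 10 genes, at 783 reads over all 12 libraries and with replicate 1 apart from the others.

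Among the HSP70 genes, stress-inducible HSPA1B was slightly lower in ASO-L1 cells than in both other groups, and its near-copy HSPA1A was lower than in sO-L1 cells but did not pass against ASO-Ctr. HSPA1B had 33.4, 27.1, 27.1 and 28.9 CPM in ASO-L1, 37.7, 33.5, 29.2 and 32.1 in sO-L1, and 41.4, 32.1, 31.1 and 30.7 in ASO-Ctr libraries. The groups overlap through the high replicate 1 libraries, while within each replicate number ASO-L1 was lower in 4 of 4 pairs in both comparisons. HSPA1B was 1.16-fold lower than in ASO-Ctr (interval 1.06 to 1.26, edgeR adjusted p 0.00709) and 1.14-fold lower than in sO-L1 cells (1.05 to 1.24, adjusted p 0.0146). The call against sO-L1 was lost without ASO-L1 replicate 2, without sO-L1 replicate 2 or 4, and, in both comparisons, without all replicate 2 libraries (adjusted p of up to 0.159 against sO-L1 and 0.0549 against ASO-Ctr).

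HSPA1A had 14.6, 14.2, 12.4 and 12.7 CPM in ASO-L1, 16.1, 15.6, 15.5 and 15.1 in sO-L1, and 18.4, 14.3, 13.4 and 14.0 in ASO-Ctr libraries. The ASO-L1 libraries were all below the sO-L1 libraries but overlapped the ASO-Ctr libraries. It was 1.16-fold lower than in sO-L1 cells (interval 1.03 to 1.29, edgeR adjusted p 0.0342), and the log2 fold change against ASO-Ctr was -0.14 (-0.31 to 0.02, adjusted p 0.143). That call ended in 8 of 12 fits without 1 library or replicate number, each of ASO-L1 replicates 3 and 4 and sO-L1 replicates 2, 3 and 4 among them, with an adjusted p of up to 0.176. It also ended with no filter on low counts and with only the 2 groups in the fit. Non-overlap of the 2 groups held for 2 of the 10 members in each comparison with ASO-L1, beside 33.3% of all genes against ASO-Ctr and 32.1% against sO-L1, and for 0 members in sO-L1 against ASO-Ctr, beside 3.23%.

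The levels of HSPA1A and HSPA1B are uncertain as single values, because their coding sequences match at 1922 of 1926 positions (99.8%) and 93.8% of the stretches of 50 bases of HSPA1B also occur in HSPA1A. The sources used here do not say how reads that fit both were counted. Their sum is less affected, and was 42.6 ± 3.71 CPM in ASO-L1, 48.7 ± 3.83 in sO-L1 and 48.9 ± 7.34 in ASO-Ctr libraries (SD, n = 4 each). HSPA1A took 31.7%, 32.1% and 30.7% of the pair in these groups. HSPA1L, which lies beside HSPA1A, had 2.29 ± 0.408 CPM in ASO-L1, 3.08 ± 0.432 in sO-L1 and 3.54 ± 0.276 in ASO-Ctr libraries. Processed pseudogenes of HSPA8, HSP90AA1, HSPB1 and DNAJB1 held at most 0.437% as many reads as their parent gene.

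HSPA8, the constitutive HSP70, had 2273, 2660.1, 2982 and 2819 CPM in ASO-L1, 2759.9, 2718, 3059 and 2873 in sO-L1, and 2480.00, 2779.7, 3086 and 3003 in ASO-Ctr libraries. The groups overlap, and ASO-L1 was lower within 4 of 4 replicate numbers in both comparisons. The differences did not pass the test, at a log2 fold change of -0.08 (interval -0.17 to 0.00, edgeR adjusted p 0.114) against ASO-Ctr and -0.09 (-0.18 to -0.01, adjusted p 0.0696) against sO-L1. Without the replicate 1 libraries the difference from ASO-Ctr did pass, at an edgeR adjusted p of 0.0388. With no filter on low counts, and with limma on the authors' log2 values, HSPA8 was called lower in both comparisons.

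HSPH1, an HSP110 that acts as exchange factor for HSP70, had 284, 288, 318 and 289 CPM in ASO-L1, 244, 264, 293 and 282 in sO-L1, and 240.5, 285, 301 and 283 in ASO-Ctr libraries. The groups overlap, with replicate 1 lowest and replicate 3 highest in each. HSPH1 was 1.09-fold higher than in sO-L1 cells (interval 1.02 to 1.16, edgeR adjusted p 0.0270) but did not pass against ASO-Ctr, at a log2 fold change of 0.09 (adjusted p 0.0994). The call ended in 6 of 12 fits without 1 library or replicate number, ASO-L1 replicate 3 and sO-L1 replicates 1, 2 and 3 among them, with an adjusted p of up to 0.114, and also with only the 2 groups in the fit.

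HSP90AA1, the inducible cytosolic HSP90, was higher in ASO-L1 cells in both comparisons. It had 3173, 3318, 3938 and 3669.99 CPM in ASO-L1, 3009.7, 2939, 3389 and 3321 in sO-L1, and 2767, 2995, 3413 and 3412 in ASO-Ctr libraries. The ranges overlap, and ASO-L1 was the highest library within each of the 4 replicate numbers. HSP90AA1 was 1.12-fold higher than in ASO-Ctr (interval 1.07 to 1.18, edgeR adjusted p 0.00102) and 1.11-fold higher than in sO-L1 cells (1.06 to 1.17, adjusted p 0.00179). These calls held without any 1 library or replicate number. HSP90AB1, the constitutive HSP90, was at 4057 ± 236 CPM in ASO-L1, 3855 ± 96.5 in sO-L1 and 3926 ± 116 in ASO-Ctr libraries and was not called, at a log2 fold change of 0.05 against ASO-Ctr (adjusted p 0.302) and 0.07 against sO-L1 (adjusted p 0.106). Without ASO-L1 replicate 1, HSP90AB1 was called higher in both comparisons, at 0.09 (adjusted p 0.0121) and 0.11 (adjusted p 0.00164), and against sO-L1 also without sO-L1 replicate 1, at 0.10 (adjusted p 0.0270).

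DNAJB1, the J-domain protein HSP40 and a classical heat shock gene, was lower in ASO-L1 cells. It had 77.7, 71.8, 74.8 and 78.4 CPM in ASO-L1, 104, 76.2, 81.1 and 82.9 in sO-L1, and 108, 80.1, 81.7 and 87.5 in ASO-Ctr libraries. The ASO-L1 libraries were all below the ASO-Ctr libraries and overlapped the sO-L1 libraries, and the high replicate 1 of both other groups had no counterpart in ASO-L1. DNAJB1 was 1.17-fold lower than in ASO-Ctr (interval 1.08 to 1.27, edgeR adjusted p 0.00403) and 1.13-fold lower than in sO-L1 cells (1.04 to 1.23, adjusted p 0.0214). The first call held without any 1 library or replicate number, and the second ended in 6 of 12 such fits, ASO-L1 replicate 1 and sO-L1 replicates 1 and 3 among the libraries whose removal ended it (adjusted p of up to 0.103).

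BAG3, the exchange factor that couples HSP70 and HSPB8 to autophagy and a strong HSF1 target, had 14.4, 13.2, 14.9 and 12.3 CPM in ASO-L1, 11.9, 13.03, 12.5 and 11.9 in sO-L1, and 14.8, 13.6, 14.1 and 12.1 in ASO-Ctr libraries. The 3 groups overlap. The log2 fold change was 0.01 (interval -0.15 to 0.17, edgeR adjusted p 0.938) against ASO-Ctr and 0.15 (-0.01 to 0.31, adjusted p 0.114) against sO-L1. The smallest adjusted p of all members in sO-L1 against ASO-Ctr cells, 0.758, was that of BAG3, with a log2 fold change of -0.14. Member fold changes in that comparison lay between -0.14 and 0.07 on the log2 scale.

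Levels differed more between replicate numbers than between groups in 9 of the 10 genes, HSPB8 being the exception. This sets the span of 4 replicate means against that of 3 group means, and it was not counted over all genes. The mean log2 CPM of HSPB1 spanned 0.63 between replicate numbers and 0.23 between groups, and that of HSP90AA1 0.26 and 0.16. Replicate 1 was highest in all 3 groups for HSPB1, HSPB8, HSPA1A and HSPA1B, and lowest in all 3 for HSPH1. The smaller calls rest on the comparison within replicate numbers. Without the replicate number in the model, HSPB8 was the only member called in either comparison, at an adjusted p of 8.66e-06 against ASO-Ctr and 8.03e-06 against sO-L1, and the other 9 had adjusted p-values from 0.0694 to 0.953 against ASO-Ctr and from 0.117 to 0.722 against sO-L1. In the authors' deposited table of ASO-L1 against sO-L1, 2 members had an adjusted p under 0.05, HSPB8 at a log2 fold change of 3.01 and HSP90AA1 at 0.15, beside 32.8% of 20856 genes.

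**Figure D3:**
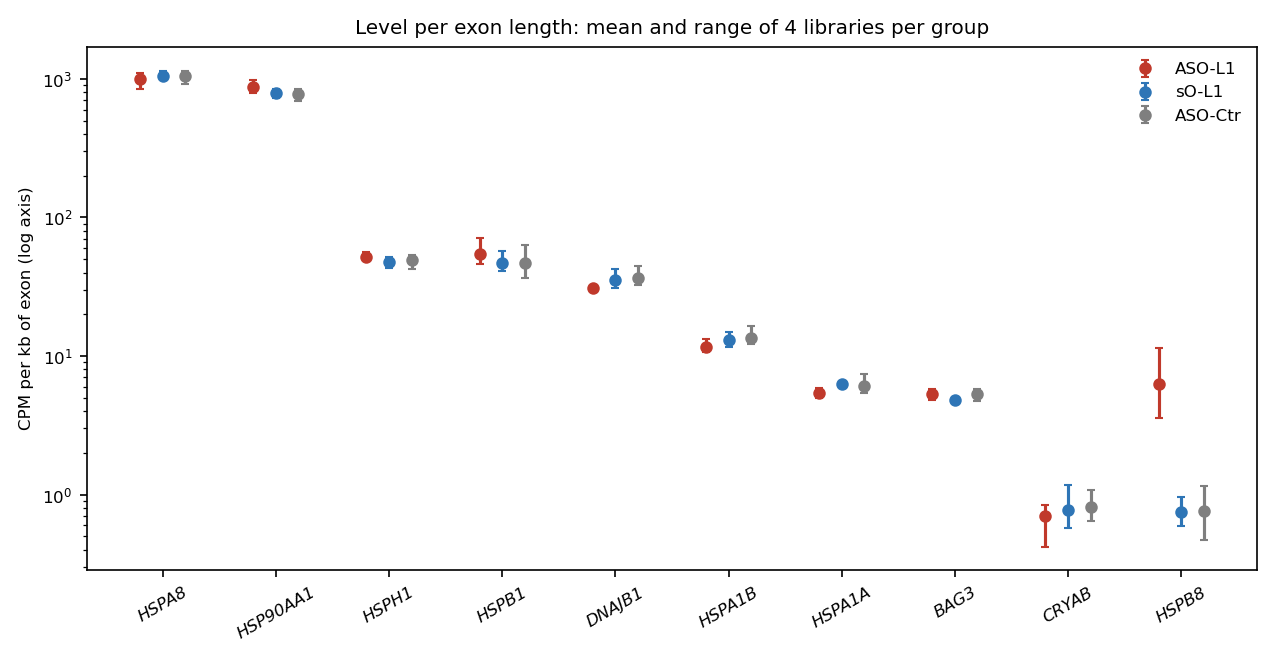
CPM per kb of merged exon (log axis) of the members by group, ordered by the ASO-Ctr mean, with points giving the mean and bars the range of 4 libraries. HSPB8 is beside CRYAB at the bottom in sO-L1 and ASO-Ctr cells and at the level of HSPA1A and BAG3 in ASO-L1 cells.

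Per length of exon, as the plot of levels per kb shows, HSPA8 and HSP90AA1 stood far above the rest. HSPA8 had 994 ± 112 CPM per kb in ASO-L1, 1057 ± 56.6 in sO-L1 and 1051 ± 100 in ASO-Ctr cells, and HSP90AA1 had 875 ± 85.8, 786 ± 55.5 and 781 ± 79.6. HSPB1 and HSPH1 followed at 54.1 ± 11.5 and 51.9 ± 2.75 CPM per kb in ASO-L1 cells, with overlapping ranges, and DNAJB1 at 30.9 ± 1.22. HSPA1B had 11.6 ± 1.17 CPM per kb in ASO-L1 cells. The means of HSPB8, HSPA1A and BAG3 were lower, at 6.27 ± 3.50, 5.43 ± 0.441 and 5.34 ± 0.453 in ASO-L1 cells, with overlapping ranges, and the range of HSPB8 (3.60 to 11.4) also overlaps that of HSPA1B (10.8 to 13.2). In the other groups HSPB8 was at 0.746 ± 0.161 in sO-L1 and 0.757 ± 0.312 in ASO-Ctr cells, overlapping the range of CRYAB, which had 0.700 ± 0.193, 0.778 ± 0.279 and 0.813 ± 0.195 in ASO-L1, sO-L1 and ASO-Ctr cells. The removal of duplicate reads by the authors lowers abundant genes more than rare ones, so the gaps in level between genes may be compressed.

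The genes whose log2 CPM over the 12 libraries was most like that of HSPB8, among 12523 candidates, were MCAM (Pearson r 0.996), RAB3IL1 (0.992) and TRIB3 (0.992). MCAM, a cell adhesion molecule, had 70.1 ± 12.7 CPM in ASO-L1, 39.2 ± 2.55 in sO-L1 and 38.4 ± 3.92 in ASO-Ctr libraries. TRIB3, a pseudokinase induced by the integrated stress response, had 48.0 ± 23.0, 9.81 ± 2.17 and 10.1 ± 2.09 CPM in ASO-L1, sO-L1 and ASO-Ctr libraries. RAB3IL1, an exchange factor for Rab GTPases, had 11.5 ± 2.76, 5.34 ± 0.510 and 4.95 ± 0.784 CPM. These libraries share the group difference and the replicate numbers, so the coefficients are descriptions. The closest genes to the others were PPAP2C for HSPB1 (0.975), SHFM1 for CRYAB (0.916), PALM3 for HSPA1A (0.968), GON4L for HSPA1B (0.952), HNRNPA3 for HSPA8 (0.956), CCNI for HSPH1 (0.972), FAM136A for HSP90AA1 (0.968), NAB2 for DNAJB1 (0.973) and THBS1 for BAG3 (0.884).

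**Figure D4:**
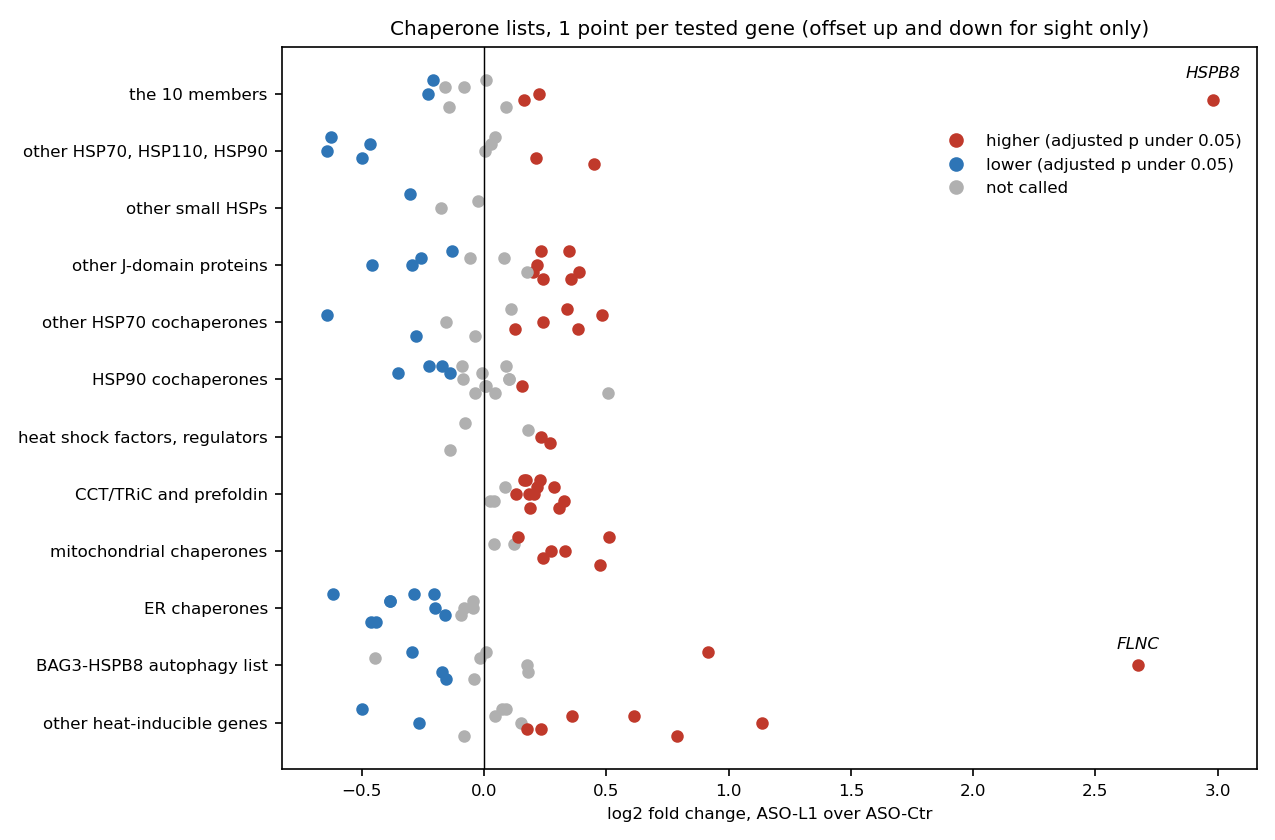
Log2 fold changes of ASO-L1 over ASO-Ctr for the 10 members and for 11 lists of chaperone and heat shock genes, 1 point per tested gene coloured by the call. Mitochondrial chaperone and CCT or prefoldin points lie at or right of 0, endoplasmic reticulum points left of it, and HSPB8 and FLNC lie far to the right of all others.

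Other heat shock and chaperone genes were examined in 11 lists with 111 different genes tested, some of them on more than 1 list, shown in the plot of chaperone lists. The list counts below stand beside 21.2% of all genes called higher and 23.1% lower against ASO-Ctr. Against sO-L1 these shares were 21.1% and 22.9%. No list was tested as a set. Since HSPB8 works with BAG3 in selective autophagy, the first list holds partners and clients of that complex. Of its 11 genes, 2 were higher and 3 lower in ASO-L1 than in ASO-Ctr cells, and the same counts were found against sO-L1, with a median log2 fold change of -0.02 and 0.002 beside -0.003 over all genes in both. FLNC, the muscle filamin and a client of the complex, had 327, 142, 131 and 81.6 CPM in ASO-L1, 22.9, 25.2, 25.9 and 26.9 in sO-L1, and 24.7, 22.5, 26.2 and 23.6 in ASO-Ctr libraries. As for HSPB8, the ASO-L1 libraries lie above all others and replicate 1 is the highest of them. The log2 fold change of FLNC was 2.67 ± 0.23 (SE) against ASO-Ctr (edgeR adjusted p 1.87e-07) and 2.61 ± 0.23 against sO-L1 (adjusted p 2.34e-07). SQSTM1, the autophagy receptor p62, averaged 86.0 ± 16.9 CPM in ASO-L1, 50.1 ± 4.21 in sO-L1 and 45.2 ± 4.41 in ASO-Ctr libraries and was higher by 0.91 and 0.77 on the log2 scale against ASO-Ctr and sO-L1. GABARAPL1, WIPI1 and VPS18, which act in autophagosome formation and fusion, were lower, at -0.17, -0.29 and -0.15 against ASO-Ctr, and these 3 calls were lost without the replicate number in the model in both comparisons. With a library or replicate number left out, WIPI1 was called in 6 of 12 fits and GABARAPL1 in 4 of 12 against ASO-Ctr, and in 4 and 12 against sO-L1.

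Transcripts of the heat shock regulators differed by less than 0.3 on the log2 scale. HSF1 averaged 58.4 ± 3.36 CPM in ASO-L1, 49.9 ± 1.505 in sO-L1 and 49.7 ± 2.95 in ASO-Ctr libraries, higher by 0.23 on the log2 scale in both comparisons (edgeR adjusted p 0.00109 against ASO-Ctr and 0.00131 against sO-L1). HSF2 was higher than in ASO-Ctr cells by 0.27 (adjusted p 0.0134), a call lost without ASO-Ctr replicate 1 (adjusted p 0.0720), and did not pass against sO-L1, at 0.18 (adjusted p 0.0858). HSBP1, an HSF1-binding protein, was lower than in sO-L1 cells by 0.12 (adjusted p 0.0309) and did not pass against ASO-Ctr, at -0.08. The call ended in 8 of 12 fits without 1 library or replicate number, ASO-L1 replicates 1 and 3 and sO-L1 replicates 1, 2 and 3 among them (adjusted p of up to 0.117), and also with no filter on low counts, with only the 2 groups and without the replicate block. Of the 5 tested genes of this list, 2 were higher and 0 lower against ASO-Ctr, and 1 higher and 1 lower against sO-L1, with a median log2 fold change of 0.18 and 0.05.

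Among 13 other genes that textbooks list as heat-inducible, 6 were higher and 2 lower in each comparison, with a median log2 fold change of 0.15 against ASO-Ctr and 0.10 against sO-L1. ZFAND2A, an arsenite- and heat-induced proteasome regulator, averaged 10.97 ± 2.89 CPM in ASO-L1, 4.68 ± 0.555 in sO-L1 and 4.88 ± 0.599 in ASO-Ctr libraries. Its log2 fold change was 1.14 against ASO-Ctr and 1.2 against sO-L1, without overlap of the groups. HMOX1, the heme-degrading enzyme, was higher by 0.79 and 0.91, and IER5, an HSF1 cofactor, by 0.61 and 0.75, against ASO-Ctr and sO-L1. HSPA4L, an HSP110 relative on this list, was lower by 0.50 and 0.60. HSPA6, a strictly inducible HSP70, had 1 read in the 12 libraries together.

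In the HSP70, HSP110 and HSP90 list outside the members, 2 of 9 tested genes were higher and 4 lower than in ASO-Ctr cells, and 1 higher and 4 lower than in sO-L1 cells. HSPA14, which works with the ribosome, was higher by 0.45 and 0.46 on the log2 scale against ASO-Ctr and sO-L1, while HSPA2, known from testis, was lower by 0.47 and 0.67. HSPA13, the other gene higher against ASO-Ctr, is a microsomal protein. HSPA12B, a divergent family member at 1.44 ± 0.291 CPM in ASO-L1 cells, was lower by 0.64 and 0.75, and its call against ASO-Ctr was lost without the replicate block and without replicate 2 (adjusted p 0.0609 and 0.0693). Of 8 small heat shock proteins outside the members 3 passed the filter on low counts and 1 was lower, HSPB11, which is a subunit of the ciliary transport machinery, by 0.30 and 0.35. The call of HSPB11 against ASO-Ctr was lost without replicate 3 (adjusted p 0.0650). The median log2 fold changes against ASO-Ctr and sO-L1 were 0.004 and -0.08 in the first list and -0.18 and -0.35 in the second.

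The cochaperones went in both directions. Of 14 J-domain proteins, 7 were higher and 4 lower against ASO-Ctr, and 6 higher and 3 lower against sO-L1. DNAJC2, a ribosome-associated J-domain protein, was higher by 0.39 and 0.36 on the log2 scale, DNAJB2 by 0.36 and 0.22, and DNAJA1 by 0.23 and 0.23, while DNAJB6, which suppresses aggregation, was lower by 0.46 and 0.43. Of 10 exchange factors and HSP70 cochaperones, 5 were higher and 2 lower against ASO-Ctr and 4 higher and 3 lower against sO-L1. The exchange factor HSPBP1 was lower by 0.64 and 0.69, and the BAG family members BAG1 and BAG5 were higher by 0.34 and 0.37 and by 0.38 and 0.43. BAG2 was higher by 0.48 against ASO-Ctr and did not pass against sO-L1, at 0.16. Of 16 HSP90 cochaperones, 1 was higher and 4 lower against ASO-Ctr, and 3 higher and 2 lower against sO-L1. CACYBP was lower by 0.35 and 0.36 and UNC45A, a myosin chaperone, by 0.22 and 0.25, while CDC37 and STIP1, which load kinases and HSP70 clients onto HSP90, were called higher against sO-L1 (0.13 and 0.14) but not against ASO-Ctr (0.10 and 0.10). Both calls ended in 9 of 12 fits without 1 library or replicate number, and without ASO-L1 replicate 1 both genes were called higher against ASO-Ctr too (0.14 and 0.17). The call of UNC45A against ASO-Ctr was lost without replicate 2 (adjusted p 0.0545). The medians of the 3 lists against ASO-Ctr and sO-L1 were 0.19 and 0.19 for J-domain proteins, 0.12 and 0.13 for exchange factors, and -0.002 and -0.02 for HSP90 cochaperones.

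Chaperones that work beside or outside the cytosolic HSP70 and HSP90 system were counted in 3 further lists. Of 8 mitochondrial chaperones, 6 were higher and 0 lower in each comparison, with a median log2 fold change of 0.26 in both. HSPA9, the mitochondrial HSP70, averaged 1358 ± 101 CPM in ASO-L1, 994 ± 51.3 in sO-L1 and 976 ± 40.0 in ASO-Ctr libraries, higher by 0.45 and 0.48 against sO-L1 and ASO-Ctr. Its J-domain partner DNAJA3 was higher by 0.51 against ASO-Ctr and 0.50 against sO-L1. Of 14 subunits of the cytosolic chaperonin CCT and its feeder prefoldin, 11 were higher than in ASO-Ctr and 10 higher than in sO-L1 cells, with 0 lower and medians of 0.19 and 0.16. CCT8 was higher by 0.29 and 0.26 and PFDN2 by 0.33 and 0.36. Of 13 chaperones of the endoplasmic reticulum, 0 were higher and 9 lower in each comparison, with a median of -0.20 against ASO-Ctr and -0.22 against sO-L1. HSP90B1, the HSP90 of this compartment, averaged 1511 ± 267 CPM in ASO-L1, 2334 ± 106 in sO-L1 and 2303 ± 167 in ASO-Ctr libraries, lower by 0.64 against sO-L1 and 0.62 against ASO-Ctr. HSPA5, its HSP70, was lower by 0.38 and 0.39 against sO-L1 and ASO-Ctr. These 3 lists gave the same counts with RLE scaling and with library size alone. Without the replicate block, 4 mitochondrial chaperones were higher against ASO-Ctr and 5 against sO-L1, 8 and 9 endoplasmic reticulum chaperones were lower, and 11 and 9 CCT or prefoldin subunits were higher. In sO-L1 against ASO-Ctr cells, 0 genes of these 11 lists were called by edgeR as fitted here. BAG2, at a log2 fold change of 0.32 (adjusted p 0.172), was called there by DESeq2, by limma, with no filter on low counts, with only these 2 groups in the fit and without the replicate 1 libraries. FKBP4 and DNAJC3 were called lower with only the 2 groups and without replicate 1, and HSPA2 and SQSTM1 higher with only the 2 groups.

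HSPB8, CRYAB, BAG3 and FLNC are abundant in muscle, and a list of 7 muscle genes summed to 33.3 to 37.5 CPM in ASO-L1, 18.7 to 28.0 in sO-L1 and 20.9 to 29.9 in ASO-Ctr libraries. Of its 3 tested genes, 1 was higher against ASO-Ctr, ACTA1, the skeletal muscle actin, at 23.0 ± 2.06 CPM in ASO-L1, 12.5 ± 2.24 in sO-L1 and 13.9 ± 2.25 in ASO-Ctr libraries. ACTC1 was at 11.2 ± 2.18, 9.58 ± 1.40 and 10.1 ± 1.38 CPM in these groups, and DES at 0.788 ± 0.220, 1.39 ± 0.263 and 1.21 ± 0.344. Against sO-L1, ACTA1 was higher by 0.90 (log2, edgeR adjusted p 1.81e-07) and DES was lower by 0.76 (adjusted p 0.0197). DES did not pass against ASO-Ctr, at -0.54 (adjusted p 0.0947), and ACTC1 passed in neither comparison. The defining muscle genes MYOD1, MYH7, CKM and TNNT2 were all under 1 CPM in every library, with MYH7 at 0 in all ASO-L1 libraries. Neuroectoderm genes summed to 528 to 604 CPM in ASO-L1, 425 to 529 in sO-L1 and 392.1 to 454 in ASO-Ctr libraries, nearly all of it NES, with 2 of 3 tested genes higher and SOX1 at or near 0. Their part in the HSPB8 difference was not tested. Fibroblast genes summed to 123 to 144 CPM in ASO-L1, 121 to 150 in sO-L1 and 132 to 158 in ASO-Ctr libraries, with THY1 higher by 0.42 and COL1A2 and PDGFRA lower by 0.73 and 0.90 (log2) against ASO-Ctr. Endoderm genes summed to at most 3.61 CPM and trophectoderm genes to at most 1.63 CPM in any library. Of the endoderm genes, FOXA2 was higher by 1.21 (log2) against ASO-Ctr, though the groups overlap. FOXA2 had 1.69, 1.65, 3.47 and 3.27 CPM in ASO-L1 and 0.342, 0.454, 2.39 and 1.68 in ASO-Ctr libraries of replicates 1 to 4.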

How the data were processed

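Poly(A) RNA of sorted H9 cells was sequenced as stranded libraries, 4 in each of 3 groups. The deposited counts are reads per gene with duplicates removed, per the labels; the submitters' processing notes name Trim Galore 0.4.0, TopHat2 2.0.13, featureCounts of Subread 1.5.0 and build hg19. Which annotation defined the genes is not stated. A second deposited table holds log2 values that the authors normalised and batch-corrected, per the labels, and was used in 1 alternative only. The remaining table holds the authors' log2 fold changes, p-values and scores (t and B statistics) of ASO-L1 against sO-L1, with column names of a limma table per the file headers.

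Counts were tested with edgeR 4.0.16 (R 4.3.3; quasi-likelihood F-test after TMM scaling, low counts removed by filterByExpr at a minimum of 10) over 17264 genes in all 12 libraries, with group and replicate number as terms, and Benjamini-Hochberg adjusted over all of them. The replicate number was a term because the labels name a batch correction of the log2 values and number the replicates alike in each group. Same-numbered libraries also deviated together in all 12 pairs of libraries from different groups (r 0.215 to 0.726 over 10549 genes). This is a hint from the data, and the labels do not state that a replicate number marks a batch. Pairs with different replicate numbers ranged from -0.608 to 0.560 (median -0.225), so the 2 kinds of pair overlapped. No libraries were identical. The count table holds 26 symbols that a spreadsheet turned into dates, none of them a member. Alternatives used no replicate block, other scalings and filters, the 2 compared groups alone, DESeq2 1.42.0, limma 3.58.1 on the deposited log2 values, and each library or replicate number left out.

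On simulated counts for ASO-L1 against ASO-Ctr (16984 genes), 35 of 98 genes changed 1.2-fold and 87 of 98 changed 2-fold were recovered. There, 7 unchanged genes were called. The simulation changed few genes, while 44.3% were called in the real counts. It also gave all genes the same spread and held no replicate effect. The recovered shares therefore do not carry over to the calls given here. CPM per kb used merged exon lengths of GENCODE 29. Upstream sequences of the members other than CRYAB came from RefSeq on GRCh38.p14 (read with Python 3.11.15). The members and gene lists were chosen with earlier results of these data known. Genes named were the members, HSF1, HSF2, HSP90AB1, up to 4 called genes per list and comparison with the smallest adjusted p, and the genes most like each member (3 for HSPB8, 1 for the others). HSPA13, VPS18, HSPA6 and the cell type markers were named after their values were seen. Intervals and floors cover no source of error beyond these libraries and counts. One gene that this rule names is not reported here.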

Additional observations from a re-analysis of the deposited data

Results flagged for a closer look

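In 12 of 180 groups of 4 libraries, over 60 genes, 1 library was flagged by Dixon's test of the gap against the range, where chance gives about 1 in 20. Because the gap is set against the range, a tight group can be flagged for a small difference. Among the members, ASO-Ctr replicate 1 was high for HSPA1A, at 18.4 CPM against 13.4 to 14.3 in the others, and for HSPA1B, at 41.4 against 30.7 to 32.1. HSPH1 in ASO-L1 replicate 3 was at 318 CPM, against 284 to 289.

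Among the other chaperones, ASO-L1 replicate 1 was low for FKBP4 (342 CPM, others 391 to 400.2), HSPA5 (868, others 1023 to 1039.7) and SDF2L1 (17.4, others 23.0 to 24.1). SUGT1 in ASO-L1 replicate 4 was at 103 CPM, with the others at 101.6 to 101.9. HSPA14 in sO-L1 replicate 2 was at 74.4 CPM (others 84.6 to 85.1), SDF2L1 in the same library at 32.1 (others 28.0 to 28.6), and SQSTM1 in sO-L1 replicate 1 at 56.3 (others 47.1 to 48.6). CDC37 in ASO-Ctr replicate 1 was at 237 CPM (others 200.4 to 206), and PDIA4 in ASO-Ctr replicate 4 at 485 (others 499.6 to 502). The causes were not tested.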

How the results depend on the processing

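HSPB8 was called in both comparisons with ASO-L1 in all 20 alternatives, with log2 fold changes of 2.80 to 3.13 against ASO-Ctr and 2.76 to 3.11 against sO-L1 when a library or replicate number was left out. No result changed direction while called. Without the replicate block, 1 member was higher and 0 lower in each comparison with ASO-L1, as given beside the members. With limma on the deposited log2 values, 4 members were lower against ASO-Ctr, HSPA1A and HSPA8 joining HSPA1B and DNAJB1. Against sO-L1 that fit called 4 members higher and 4 lower. It held terms for group only, on values that were already batch-corrected. The variation removed beforehand was not counted in the limma p-values, which may be too small. With a library or replicate number left out, 3 to 3 members were higher and 1 to 3 lower against ASO-Ctr, and 2 to 4 higher and 0 to 2 lower against sO-L1. Over all genes, the counts of both comparisons with ASO-L1 stayed within 1.5 times in all 20 alternatives. For sO-L1 against ASO-Ctr, 12 genes were higher and 38 lower. These counts were 2 and 15 without the replicate block, 46 and 95 with no filter on low counts, 263 and 377 with only these 2 groups in the fit, 28 and 67 with DESeq2, and 83 and 126 with limma. With a library or replicate number left out they were 1 to 90 and 8 to 151, both highest without replicate 1. Members called in this comparison were 0 in all 20 alternatives. Except where stated, the cause was not tested. Few reads lie behind CRYAB and the uncalled small heat shock proteins, and 4 libraries a group limit folds near 1.2.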
